A study of Homo sapiens with 12 samples.

Results

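Introns shorter than 100 bp that were scored as retained in RNA sequencing of HEK293A-TOA cells, a human embryonic kidney line, were examined after knockdown of the splicing factor SFSWAP. An intron was taken when the distance between its flanking exons was under 100 bp and when, averaged over the 6 libraries of a comparison, at least 10 reads fell on either its retained or its spliced form. This gave 2900 distinct introns of 13893, in 1662 genes with a symbol; 28 of them had no gene symbol. Of these, 2325 came from the comparison made with UPF1 present (10576 retained introns in all) and 2048 from the one made after UPF1 knockdown (9652 in all), and 1473 were in both. The choice used length and read number alone, not any difference between groups.

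There were 4 groups of 3 biological replicates. The siNT cells received a non-target siRNA, the siSFSWAP cells 40 nM of a mix of 2 siRNAs against SFSWAP, and the siNT/siUPF1 and siSFSWAP/siUPF1 cells an additional 30 nM of siRNA against UPF1. The cells were split on the next day and kept for 4 more days. In all 12 libraries, the siNT control included, the cells had also been given 1 µM TG, an inhibitor of O-GlcNAc removal from proteins, for the last 6 hr, so nothing here describes cells without TG. All libraries came from this one transfected line, and knockdown was partial.

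Most human introns are far longer than those described here, and the spliceosome must fit its U1, U2 and tri-snRNP particles on each one. In a very short intron the 5′ splice site, branch point and 3′ splice site lie close together, such introns are often rich in G and C, and they are among those most often left in mature RNA. SFSWAP is an SR-related protein with SURP domains, known for holding back the removal of some introns. UPF1 is the RNA helicase at the centre of nonsense-mediated decay, which removes transcripts with premature stop codons, the kind that a retained coding intron often creates.

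The sequences of 7 introns that the results turn on are given first, 5′ to 3′ on the strand of the gene, from the GRCh38 reference, with every run of 3 or more G in capitals. The first 3 belong to introns that were less retained after SFSWAP knockdown, the next 3 to introns that were more retained, and the last holds a whole miRNA hairpin and was less retained.
TUBGCP6 intron 23, chr22:50218118-50218188, minus strand: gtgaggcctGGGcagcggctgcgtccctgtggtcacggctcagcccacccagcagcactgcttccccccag
IFRD2 intron 3, chr3:50290295-50290387, minus strand: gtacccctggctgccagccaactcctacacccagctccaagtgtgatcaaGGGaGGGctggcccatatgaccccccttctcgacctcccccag
TUBB4B intron 2, chr9:137241830-137241910, plus strand: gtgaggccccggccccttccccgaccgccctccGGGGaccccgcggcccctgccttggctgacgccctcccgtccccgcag
MITD1 intron 6, chr2:99169471-99169549, minus strand: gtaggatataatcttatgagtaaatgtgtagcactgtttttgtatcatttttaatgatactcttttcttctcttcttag
CTPS1 intron 15, chr1:41008715-41008793, plus strand: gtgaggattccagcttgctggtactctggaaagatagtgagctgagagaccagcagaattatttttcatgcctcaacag
XBP1 intron 4, chr22:28796128-28796153, minus strand: gcagcactcagactacgtgcacctct
PLEKHJ1 intron 2, chr19:2235829-2235922, minus strand: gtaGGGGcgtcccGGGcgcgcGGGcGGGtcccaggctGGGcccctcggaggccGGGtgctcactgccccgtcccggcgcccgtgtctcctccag
The intron numbers count from the 5′ end of a GENCODE transcript. The TUBB4B intron is 81.5% G and C and the MITD1 intron 27.8%, and all 7 lie between coding exons. The XBP1 stretch has neither GT at its start nor AG at its end.

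The 2900 introns had a median length of 87 bp. There were 1101 of 90 to 99 bp, 1208 of 80 to 89 bp, 540 of 70 to 79 bp and 16 of 60 to 69 bp. Below 60 bp there were 6 of 21 to 59 bp, 2 of 3 to 20 bp, 5 of 2 bp and 22 of 1 bp. The 1 bp entries, in genes such as SRSF6, TRA2B, HNRNPA2B1 and HNRNPD, are single bases between 2 listed exons, too short to be spliced as an intron. Entries of 1 or 2 bp drew at most 6 reads on the spliced form in any library, and none of them was tested. GT-AG ends were found in 2796 introns (96.4%), GC-AG ends in 54 (1.86%) and AT-AC ends in 3. Coding introns made up 2293 (79.1%), while 36 lay in 5′ untranslated regions, 26 in 3′ untranslated regions, 57 in noncoding transcripts and 488 (16.8%) had borders that GENCODE does not list as an intron.

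The level of an intron is the share of transcripts that keep it, from 0 to 1, after the reads of each form are divided by the number of positions that can give them. Most very short introns were spliced out of most transcripts: the median level over them was 0.0622 to 0.0760 in the 3 siNT libraries, 0.0510 to 0.0600 in siSFSWAP, 0.0573 to 0.0682 in siNT/siUPF1 and 0.0531 to 0.0621 in siSFSWAP/siUPF1. Reads at all retained-intron events numbered 1812794 to 3030493 per library, of which 442384 to 767800 fell on these introns. SFSWAP reads, counted at its skipped-exon events per 1000000 such reads, were 121 ± 6.65 (SD, n = 3) in siNT and 47.1 ± 11.1 in siSFSWAP, a decrease of 61.1%, and the decrease after UPF1 knockdown was 59.8%, from 72.4 ± 7.57 in siNT/siUPF1 to 29.1 ± 9.99 in siSFSWAP/siUPF1. The siNT/siUPF1 libraries were thus all below the siNT libraries in SFSWAP reads before SFSWAP knockdown, on counts from tables made separately, and the part of this in any contrast between backgrounds was not tested. UPF1 reads dropped by 79.8% with SFSWAP present and by 76.8% in SFSWAP knockdown cells, also on counts from tables made separately. Each of the 4 decreases gave p = 0.1 in a two-sided exact permutation test, the smallest that 3 against 3 libraries can give. The tables hold splice events and no levels of cell-type markers, so the identity of the line was not checked.

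SFSWAP knockdown with UPF1 present lowered the retention of many more very short introns than it raised. Of the 1852 introns with at least 10 reads in all on each form, 178 fell and 18 rose at an adjusted p of at most 0.05 (quasi-binomial test across all 5845 tested retained introns, Benjamini-Hochberg). That is 9.61% lower and 0.972% higher, beside 9.1% lower and 1.33% higher over all tested introns, and 10.6% against 10.4% in either direction. The share of introns that moved was thus near that of retained introns as a whole. The median difference in level was -0.0076 over the very short introns and -0.0062 over all. The 178 falls had a median of -0.147 and came from 147 genes with a symbol, and 66 of them were falls of 0.2 or more. Groups did not overlap at 452 of the 1852 introns (24.4%), with 24.6% over all introns. An unadjusted p under 0.05 was found for 417 introns (358 lower), which is 22.5% beside 22.7% of all. The calls depended on the model: with the spread of each intron taken alone, no very short intron passed the adjusted threshold. With limma on log2 odds, which also shares its spread estimate across introns, 0 passed too. In bulk RNA, a change in every cell and a change in some cells cannot be told apart, nor can faster splicing and faster loss of the unspliced form.

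The other 473 of the 2325 introns were not tested, since 157 had too few reads on the retained form and 316 too few on the spliced form. At the limits of the rule, the 99 bp introns with most reads, in HSP90AA1 and EIF4G2, had mean siNT levels of 0.0163 and 0.240, and the 100 bp introns just outside, in SFPQ and PSMC5, 0.00912 and 0.0773. An intron of 93 bp in JMJD1C with 10 reads on average, at the read limit, had a level of 0.340.

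The falls with the biggest change in level were in introns that most siNT transcripts kept. TUBGCP6 encodes a subunit of the gamma-tubulin ring complex, from which microtubules grow. Its intron 23 was at 0.598, 0.770 and 0.921 in the 3 siNT libraries and at 0.211, 0.121 and 0.219 after SFSWAP knockdown. No siSFSWAP library reached the lowest siNT library, and the mean fell by 0.579 (adjusted p = 0.000655). GBA2, the non-lysosomal glucosylceramidase, had levels of 0.532, 0.556 and 0.921 for intron 14 in siNT and 0.0870, 0.298 and 0.190 in siSFSWAP (adjusted p = 0.000271). Here too the groups stood apart. PCNX3 intron 7 went from 0.797, 0.712 and 0.756 to 0.125, 0.376 and 0.162 (adjusted p = 0.00314).

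ACADVL, the enzyme that begins the breakdown of very long-chain fatty acids in mitochondria, kept intron 18 at 0.463, 0.601 and 0.782 in siNT and at 0.111, 0.204 and 0.137 in siSFSWAP. The fall of 0.464 in its mean had an adjusted p of 0.000185. WDR90 intron 36 was nearly the same in the siNT libraries, at 0.636, 0.620 and 0.641, and dropped to 0.113, 0.203 and 0.226 (adjusted p = 0.0157). SPATA20 intron 10 varied widely in siNT, from 0.240 to 0.868, and was between 0.0594 and 0.151 in siSFSWAP (adjusted p = 0.0139). WDR45, a scaffold of early autophagosomes, had levels of 0.751, 0.590 and 0.863 for intron 9 in siNT and 0.279, 0.215 and 0.462 in siSFSWAP (adjusted p = 0.002). NSUN5P1 intron 3 fell by 0.429 (adjusted p = 0.00642), but this pseudogene resembles NSUN5, so its reads could come from either locus.

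**Figure D1:**
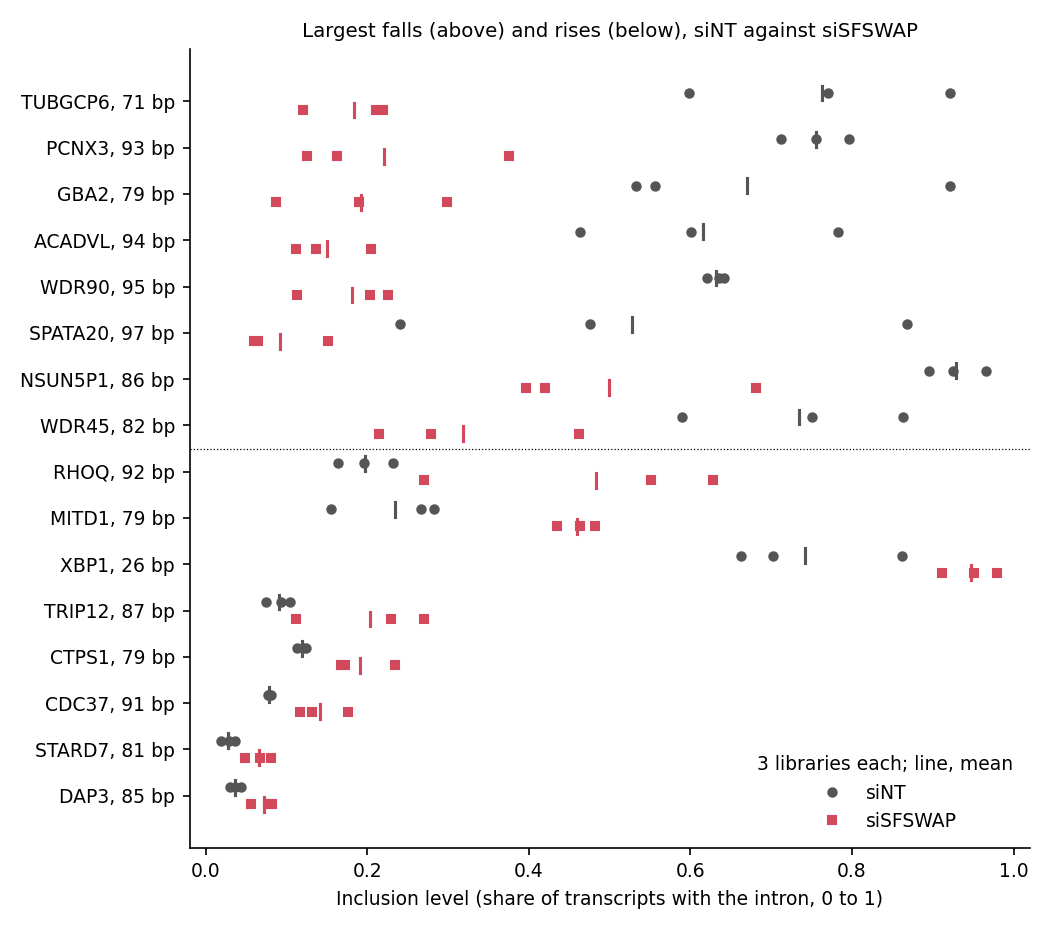
Inclusion level (x axis, share of transcripts with the intron, 0 to 1) of the 8 largest falls (above the dotted line) and 8 largest rises (below) after SFSWAP knockdown, by gene and intron length. Each point is 1 library (circles siNT, squares siSFSWAP) and each line a mean. The TUBGCP6 squares lie at 0.121 to 0.219 and its circles at 0.598 to 0.921, and the XBP1 squares at 0.911 to 0.980 and its circles at 0.663 to 0.862.

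The rises were fewer and mostly smaller. MITD1 encodes a protein that works with the ESCRT-III machinery in the final cut of cell division. Its intron 6 was at 0.155, 0.267 and 0.283 in siNT and at 0.434, 0.464 and 0.482 in siSFSWAP, a rise of 0.225 (adjusted p = 0.00339). A 92 bp intron in RHOQ, whose borders GENCODE does not list, rose from 0.195, 0.232 and 0.164 to 0.552, 0.627 and 0.270 (adjusted p = 0.0375). TRIP12 intron 28, in the transcript of a ubiquitin ligase, was at 0.0745 to 0.104 in siNT and at 0.270, 0.112 and 0.229 in siSFSWAP (adjusted p = 0.0113).

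Several rises were found at well-read introns of abundant transcripts. CTPS1 makes CTP from UTP, and its intron 15 was at 0.124, 0.121 and 0.113 in siNT and at 0.167, 0.172 and 0.234 in siSFSWAP (adjusted p = 0.00236). CDC37, which brings protein kinases to the chaperone HSP90, kept intron 3 at 0.0772, 0.0783 and 0.0810 in siNT and at 0.116, 0.131 and 0.177 in siSFSWAP (adjusted p = 8.82e-06). STARD7 intron 4 had a mean of 0.0281 ± 0.00903 (SD, n = 3) in siNT and 0.0659 ± 0.0161 in siSFSWAP (adjusted p = 0.0104). DAP3, a protein of the small mitochondrial ribosomal subunit, had means of 0.0366 ± 0.00694 and 0.0721 ± 0.0137 for intron 8 (adjusted p = 0.0107). In each of these 4 genes every siSFSWAP library was above every siNT library.

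The shortest intron called in any comparison was the 26 bp intron of XBP1. XBP1 RNA is cut at this place by the endoplasmic reticulum kinase-endonuclease IRE1 and joined by a tRNA ligase, without the spliceosome, and the spliced RNA encodes the active transcription factor of the unfolded protein response. The unspliced form made up 0.663, 0.862 and 0.702 of XBP1 RNA in siNT and 0.911, 0.951 and 0.980 in siSFSWAP. All 3 siSFSWAP libraries were above all 3 siNT libraries (adjusted p = 0.00124), with 48, 20 and 49 reads on the spliced form in siNT and 9, 4 and 3 in siSFSWAP. After UPF1 knockdown the levels were 0.739, 0.838 and 0.859 without and 0.957, 0.923 and 0.875 with SFSWAP knockdown, in the same order but short of the threshold (adjusted p = 0.354). The difference between the 2 SFSWAP effects did not pass either (adjusted p = 0.785). With UPF1 present, the other tested introns of under 60 bp, of 10 bp in CDK11B, 32 bp in NPRL3, 51 bp in CHTOP and 54 bp in PDHB, had adjusted p from 0.427 to 0.996.

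Some genes carried several very short introns that were called. In 18 genes 2 or more passed the test, and in 17 of them all the called introns fell. Falls made up 90.8% of all called very short introns, so a shared direction within a gene is common from that share alone. ACADVL had 5 called falls among 6 tested introns. Its intron 17 was at 0.836, 0.929 and 1.00 in siNT and at 0.455, 0.565 and 0.768 in siSFSWAP (adjusted p = 0.00751), while intron 14 went from 0.256, 0.148 and 0.261 to 0.0347, 0.0962 and 0.0840 (adjusted p = 0.0404). FLNA, the actin crosslinker filamin A, had 5 falls among 14 tested introns, from intron 6 to intron 46. The 5 were mostly spliced out already in siNT, and intron 39 was at 0.112, 0.0669 and 0.188 in siNT and at 0.0423, 0.0470 and 0.0363 in siSFSWAP (adjusted p = 0.000633). All 3 tested introns of IFRD2, PTBP1 and GPAA1 fell. PTBP1 encodes the polypyrimidine tract-binding splicing repressor, and its introns 4, 5 and 7 fell by 0.0700, 0.0418 and 0.0140. CPSF1, the largest subunit of the cleavage and polyadenylation factor, had 3 falls among 18 tested introns. Introns of one gene share their transcripts and are not independent.

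The gene with several rises was CALR, which encodes the endoplasmic reticulum chaperone calreticulin, and its rises came from 1 library. CALR intron 4 was at 0.0153, 0.0174 and 0.0133 in siNT and at 0.0171, 0.0143 and 0.0834 in siSFSWAP. Introns 5 and 6 had the same shape, at 0.00593, 0.00520 and 0.0431 and at 0.00452, 0.00367 and 0.0252 in siSFSWAP. The third siSFSWAP library alone was high, and the CALR groups overlapped at intron 4. After UPF1 knockdown the first siSFSWAP/siUPF1 library stood out in the same way, at 0.0772 for intron 4 while the other two were at 0.0241 and 0.0169 (adjusted p = 0.0568). RPL6 was called higher at an intron of 90 bp that GENCODE does not list, where 1 siNT library was at 0.871 and the other five libraries at 1.00, so that call rests on 1 library too.

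Gene groups were chosen with earlier results of these data known, and are described by their counts. Mitochondrial proteins had 54 tested introns, of which 12 fell and 0 rose (22.2% called, beside 10.4% of all tested introns). The 12 were in ACADVL, FASTK, IDH3B, MRPL4, MRPL53, POLRMT and SLC25A39, with 5 of them in ACADVL. MRPL4, a protein of the large mitochondrial ribosomal subunit, kept intron 7 at 0.234, 0.203 and 0.231 in siNT and at 0.0773, 0.0942 and 0.0819 in siSFSWAP (adjusted p = 5.89e-05). Splicing factors had 9 falls and 0 rises among 59 introns (15.3%), among them introns of CHERP, PTBP1, RBM10, SRRM2 and THOC6. SRRM2, a scaffold of nuclear speckles, kept intron 7 at 0.702, 0.585 and 0.710 in siNT and at 0.467, 0.364 and 0.494 in siSFSWAP (adjusted p = 0.000116). THOC6 intron 4, in the transcript of an mRNA export factor, fell from 0.377, 0.270 and 0.351 to 0.0714, 0.0835 and 0.127 (adjusted p = 3.72e-05). CHERP intron 14 fell by 0.131 (adjusted p = 0.000269).

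Genes of DNA replication and repair had 5 falls and 0 rises among 50 introns (10%). RAD9A intron 8 fell by 0.260 (adjusted p = 0.00779). RECQL4, a DNA helicase whose very short introns have been studied before, had 4 tested introns, and introns 13 and 18 fell by 0.194 and 0.228 (adjusted p = 0.00124 and 0.0239). NDOR1, another gene with a studied short intron, was at 0.465, 0.484 and 0.433 for intron 8 in siNT and at 0.261, 0.294 and 0.341 in siSFSWAP, apart but short of the threshold (adjusted p = 0.126).

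Chromatin and transcription genes had 7 falls among 72 introns (9.72%). CHD4, the helicase of the NuRD complex, was at 0.260, 0.169 and 0.196 for intron 26 in siNT and at 0.0877, 0.0962 and 0.0919 in siSFSWAP (adjusted p = 3.07e-06). GTF2F1 intron 10 fell by 0.0212 and SIRT6 intron 5 by 0.141 (adjusted p = 0.00203 and 0.00527). CHD4, CHERP and CEP295 introns lie under an exon of a gene on the opposite strand, whose reads could enter these counts where strand was not used; 63 of the 1852 introns had such an overlap and 8 of those fell.

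In the cytosolic ribosomal protein genes 2 of 22 introns fell and 1 rose (RPL6, above), which is 13.6% called, beside 10.4% of all tested introns. The RPS2 intron 5 had 13723 reads per library on average, and its level dropped from 0.0815, 0.0659 and 0.0671 to 0.0424, 0.0494 and 0.0527 (adjusted p = 6.59e-07). RPL10A intron 2 fell by 0.0162 (adjusted p = 0.0223). Tubulin, microtubule and motor genes had 4 falls among 31 introns (12.9%), 3 in TUBGCP6 and 1 in TUBB4B, a beta-tubulin. The TUBB4B intron 2 went from 0.162, 0.108 and 0.261 to 0.0584, 0.0688 and 0.0684 (adjusted p = 5.05e-05). Translation factors and tRNA synthetases had 3 falls among 50 (6%), in EIF3G, QARS and EEF1G, with adjusted p of 6.41e-06 for EIF3G, a subunit of initiation factor 3. The EEF1G groups overlapped.

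In the O-GlcNAc and hexosamine pathway, 1 of 6 tested introns fell (16.7%, beside 10.4% of all tested introns). It was intron 5 of AMDHD2, which removes the acetyl group from N-acetylglucosamine 6-phosphate. That intron was at 0.337, 0.323 and 0.448 in siNT and at 0.177, 0.0578 and 0.0578 in siSFSWAP (adjusted p = 0.0258). Intron 17 of OGT, the O-GlcNAc transferase, was at or under 0.00461 in siNT and between 0.00434 and 0.0133 in siSFSWAP (adjusted p = 0.431). In the nonsense-mediated decay genes 1 of 7 fell (14.3%), SMG1 intron 61, from 0.0653, 0.0401 and 0.107 to 0.00709, 0.0160 and 0.0330 (adjusted p = 0.0202). UPF1 intron 12 was at 0.0750 ± 0.0162 (SD, n = 3) in siNT and 0.0341 ± 0.00603 in siSFSWAP, just short of the threshold (adjusted p = 0.0522).

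The falls and rises differed in base composition. The 178 introns that fell had a median G and C content of 66.1%, the 18 that rose 38.9% and those not called 58.3%. Leaving out 1 library gave medians of 64.8% to 66.3% for the falls and 33.1% to 51.2% for the rises. The 18 rises include the XBP1 stretch and the CALR and RPL6 calls that rest on 1 library. Of introns under 40% G and C, 1 of 416 fell (0.240%) and 9 rose (2.16%). The share that fell was 5.16% from 40% to under 50%, 7.33% from there to under 60%, 14.2% from there to under 70% and 18.7% at 70% or more, where 0 of 300 rose. Retained introns of 100 bp or more followed the same order, with 1.60%, 4.98%, 10.1%, 14.1% and 18.8% lower in these bins. The shares of very short and longer introns within a bin were not tested against each other. The single fall under 40% was SMG1 intron 61, at 26.2%. The median siNT level rose along the same bins, from 0.0415 under 40% to 0.103 at 70% or more, while in siSFSWAP it was 0.0488 and 0.0607; the part of the starting level in the calls was not tested.

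By length, of introns under 80 bp 10.9% fell, of those of 80 to 89 bp 10.3% and of those of 90 to 99 bp 8.15%, beside 9.72% of introns from 100 to under 200 bp, 7.99% from there to under 500 bp and 4.67% of 500 bp or more. Rises were found at 6.07% of introns of 500 bp or more and at 0.582% to 1.91% in the 3 bins under 100 bp.

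**Figure D2:**
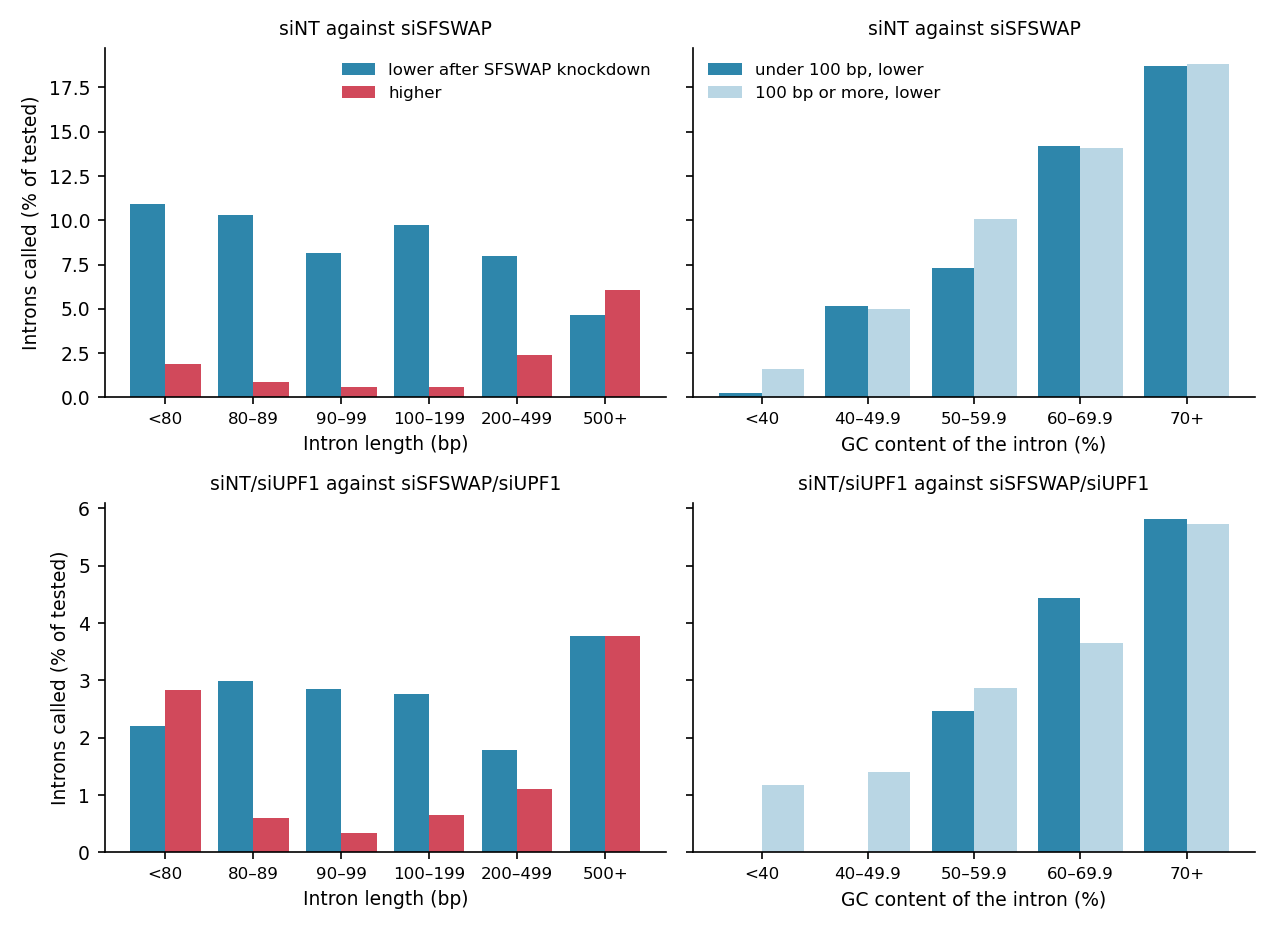
Share of tested introns called (y axis, percent) by intron length (left, bp) and by G and C content (right, percent) in the comparison with UPF1 present (top) and after UPF1 knockdown (bottom). Left bars are falls and rises of all retained introns; right bars are falls of introns under 100 bp (dark) and of 100 bp or more (light). The dark bars climb from 0.240% under 40% G and C to 18.7% at 70% or more in the upper panel, and to 5.81% in the lower panel.

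The runs of G printed above were more common in the falls. GGG was searched on the gene strand only; it is the core of sites bound by hnRNP H and F proteins, though a match is no evidence of binding. Introns under 50 bp were left out, which removed the XBP1 stretch from the rises. GGG occurred in the first 50 bases of 84.3% of the introns that fell, 47.1% of the 17 other introns that rose, 68.2% of those not called and 66.0% of introns of 100 bp or more. In the last 50 bases, windows that overlap the first in introns under 100 bp, the shares were 68.5%, 35.3%, 47.7% and 39.6%. CTNAC, a loose form of the human branch point sequence, was in the last 50 bases of 42.1% of falls, 17.6% of rises, 33.4% of introns not called and 27.5% of longer introns. G runs follow from G and C content in part, and these were not separated. By reading frame, falls made up 11.6% of coding introns whose length is a multiple of 3 and that hold no in-frame stop, 8.02% of those with one, 10.5% of frame-shifting introns without an in-frame stop and 10.9% of those with one.

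After UPF1 knockdown, SFSWAP knockdown again gave more falls than rises among the very short introns. Of 1582 tested, 44 fell and 15 rose, which is 2.78% and 0.948%, beside 2.59% and 0.979% of all 5105 introns tested there and 3.57% of all in either direction. Groups did not overlap at 287 (18.1%, beside 18.1% of all), and 232 had an unadjusted p under 0.05 (14.7%, beside 15.3% of all). The calls again depended on the model, with 0 called by limma on log2 odds or with each intron's own spread. The 44 falls had a median of -0.202, and 22 of them were of 0.2 or more.

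SLC10A3 intron 3 was at 1.00, 0.880 and 1.00 in siNT/siUPF1 and at 0.499, 0.45 and 0.630 in siSFSWAP/siUPF1 (adjusted p = 0.0333). CC2D1A intron 23 dropped from 0.673, 0.356 and 0.525 to 0.0935, 0.0995 and 0.114 (adjusted p = 0.0476). ULK3, a protein kinase, kept intron 2 at 0.728, 0.688 and 0.582 in siNT/siUPF1 and at 0.296, 0.365 and 0.140 in siSFSWAP/siUPF1 (adjusted p = 0.000338). No library of one group reached the range of the other at these 3 introns. CPSF3L, the endonuclease of the Integrator complex, fell by 0.373 at intron 12 (adjusted p = 0.0243). Intron 2 of the NEDD8MDP1 readthrough transcript fell by 0.384 (adjusted p = 0.0131), with reads that may belong to NEDD8 itself.

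IFRD2, whose sequence is given above, fell in both SFSWAP comparisons. The gene encodes a factor that binds and silences ribosomes, and had levels of 0.504, 0.638 and 0.342 for intron 3 in siNT/siUPF1 and 0.126, 0.157 and 0.136 in siSFSWAP/siUPF1 (adjusted p = 0.000268). With UPF1 present the same intron was at 0.557, 0.382 and 0.712, and at 0.146, 0.116 and 0.229 after SFSWAP knockdown (adjusted p = 9.15e-06). GPAA1, a subunit of the transamidase that attaches GPI anchors, fell by 0.354 at intron 6 (adjusted p = 0.0111) and by 0.308 with UPF1 present (adjusted p = 0.00117). TUBB4B intron 2 went from 0.266, 0.322 and 0.127 to 0.0575, 0.0812 and 0.0438 (adjusted p = 7.51e-05).

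Among the 15 rises, MSTO1 had the largest difference: intron 10 was at 0.0520, 0.0470 and 0.175 in siNT/siUPF1 and at 0.277, 0.535 and 0.471 in siSFSWAP/siUPF1 (adjusted p = 0.0194). These levels rest on few reads of the retained form, 2, 3 and 7 in siNT/siUPF1 and 2, 18 and 17 in siSFSWAP/siUPF1. MITD1 intron 6 was at 0.236, 0.224 and 0.210, and at 0.455, 0.406 and 0.5 after SFSWAP knockdown (adjusted p = 0.00196), much the levels seen with UPF1 present. ARFRP1, a GTPase of the trans-Golgi, rose by 0.201 at intron 7 (adjusted p = 0.0150). INTS8, of the Integrator complex, rose by 0.135 at intron 24 and CEP295, a centriole protein, by 0.114 at intron 26 (adjusted p = 0.0269 and 0.0243). MFSD12 intron 5 was at 0.0361, 0.0364 and 0.0343 in siNT/siUPF1 and at 0.2, 0.112 and 0.182 in siSFSWAP/siUPF1 (adjusted p = 0.0447). EXOSC8, part of the RNA exosome ring, rose from 0.00444, 0.00723 and 0.0166 to 0.0441, 0.1 and 0.0329 at intron 6 (adjusted p = 0.0231). CTPS1 intron 15 rose by 0.0827 (adjusted p = 0.00064).

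**Figure D3:**
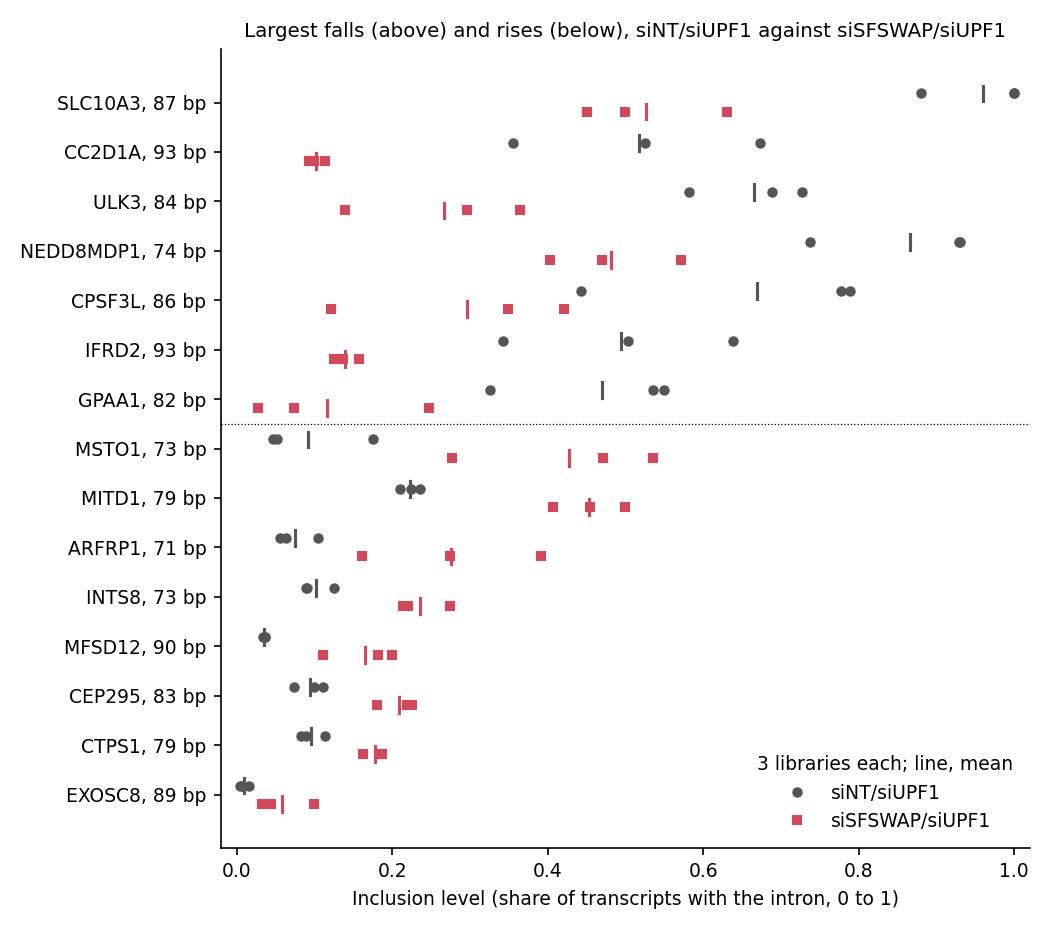
Inclusion level (x axis, 0 to 1) of 7 of the 8 largest falls (above the dotted line) and 8 largest rises (below) after SFSWAP knockdown in UPF1 knockdown cells. Each point is 1 library (circles siNT/siUPF1, squares siSFSWAP/siUPF1) and each line a mean. The MITD1 squares lie at 0.406 to 0.5 and its circles at 0.210 to 0.236.

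The same split by composition was seen here. The median G and C content was 65.7% for the falls, 42.5% for the rises and 58.5% for introns not called. The share that fell was 0% under 50% G and C, 2.46% from 50% to under 60%, 4.44% from 60% to under 70% and 5.81% at 70% or more. GGG was in the first 50 bases of 79.5% of falls, 46.7% of rises and 68.4% of introns not called. ARFRP1 and MFSD12, at 70.4% and 70% G and C, were the GC-rich ones among the 8 largest rises. By gene group, beside 3.57% called over all introns, splicing factors had 2 falls (CHERP and PTBP1) and 1 rise (HNRNPH3) among 55 introns (5.45%). Chromatin genes had 2 falls among 70 (CHD4 and MED15, 2.86%). DNA replication and repair genes had 0 falls and 1 rise (MCM7) among 56 (1.79%). Ribosomal protein genes had 1 fall among 19 (RPS2, 5.26%), mitochondrial proteins 1 among 51 (ACADVL intron 18, 1.96%) and tubulin genes 1 among 26 (TUBB4B, 3.85%). None of 7 introns in nonsense-mediated decay genes, 5 in the hexosamine pathway or 7 in the genes with studied short introns passed the test. EEF1G was the single call among 35 in translation factors (2.86%), and its groups overlapped. HNRNPH3, one of the hnRNP H and F family that binds G runs, was at 0.0590, 0.0587 and 0.0574 for intron 8 in siNT/siUPF1 and at 0.0875, 0.0972 and 0.0723 in siSFSWAP/siUPF1 (adjusted p = 0.00950).

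The 2 SFSWAP comparisons used separate libraries, and 1179 very short introns were tested in both. With UPF1 present 129 of these fell and after UPF1 knockdown 38, and 32 fell in both, which is 24.8% of the first and 84.2% of the second, beside 23.9% and 80.9% over all 3732 retained introns tested in both. Of the 129, 115 (89.1%) had a difference below 0 after UPF1 knockdown. That share was 54.0% for all 1179 and 92.2% for the falls among all retained introns. The 129 had a median difference of -0.141 with UPF1 present, in the libraries that chose them, and -0.0656 after UPF1 knockdown. A smaller median can come from that choice alone, so these medians do not measure a change in the SFSWAP effect. Rises numbered 12 and 14, with 5 in both (41.7% and 35.7%, beside 26.9% and 31.8% over all), in CDC37, CTPS1, GNL3, HMGB2 and MITD1. The groups overlapped at GNL3 with UPF1 present and at CDC37 after UPF1 knockdown. EEF1G intron 8 was called in opposite directions. It was at 0.00399, 0.0167 and 0.00523 in siNT and at 0.00235, 0.00233 and 0.00412 in siSFSWAP. These groups overlapped, and the second siNT library stood highest. The rise after UPF1 knockdown came from the first siSFSWAP/siUPF1 library alone, at 0.225, while the others were at 0.00206 and 0.00370. Without that library the log2 odds ratio was -0.0062.

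**Figure D4:**
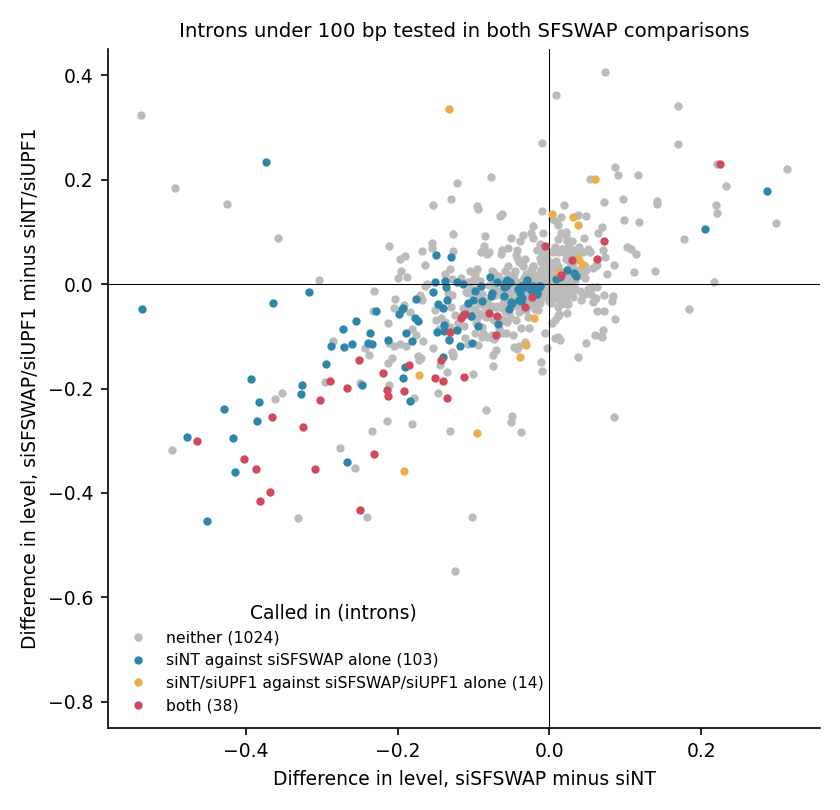
Difference in level after SFSWAP knockdown with UPF1 present (x axis) and after UPF1 knockdown (y axis) for the 1179 introns under 100 bp tested in both. Each point is 1 intron. The 38 introns called in both lie mostly at the lower left (32 fell in both), 5 rose in both and 1, in EEF1G, lies near 0 on the x axis and above 0 on the y axis.

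UPF1 knockdown moved none of these introns past the threshold, with SFSWAP present or in SFSWAP knockdown cells. With SFSWAP present 0 of 854 very short introns tested passed (0.0659% of all 3034 introns did). An unadjusted p under 0.05 was found for 79 (9.25%, beside 10.1% of all), and 69 of the 79 were lower. The median difference in level was -0.0068 over the very short introns and -0.0054 over all, so the direction was shared by retained introns as a whole. Limma on log2 odds called 0 too, with 68 at an unadjusted p under 0.05. Intron 12 of ACADVL came nearest: it was at 0.206, 0.137 and 0.187 in siNT and at 0.0552, 0.0554 and 0.0312 in siNT/siUPF1, with no overlap (adjusted p = 0.0620). SMG1 intron 61 was at 0.0653, 0.0401 and 0.107 and at 0, 0.00618 and 0.0178 (adjusted p = 0.0917). In ACD, a protein of the telomere shelterin complex, intron 8 was at 0.193, 0.170 and 0.204 and at 0.0413, 0.0403 and 0.0354 (adjusted p = 0.111). In SFSWAP knockdown cells 0 of 845 passed (0.166% of all 3015 did), 33 had an unadjusted p under 0.05 (3.91%, beside 4.94% of all), and the smallest adjusted p was 0.527, in RBMX; limma called 0 (44 unadjusted). These 2 comparisons set the 2 deposited tables beside each other, and each table had been counted on its own. Only introns listed with the same borders, flanking exons included, in both were used. That left 1040 very short introns before the filter on reads of each form, of the 1473 in both. The same 1040 entered the test of the difference between backgrounds.

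The difference of the SFSWAP effect between the 2 UPF1 backgrounds was tested for 941 very short introns, and 0 passed (0.0291% of all 3435 introns did); with limma on log2 odds 0 passed as well (69 had an unadjusted p under 0.05). An unadjusted p under 0.05 was found for 60 (6.38%, beside 6.58% of all). In 53 of the 60 the effect was more positive, meaning less of a fall or more of a rise, after UPF1 knockdown. The siNT libraries in this test were also the control for SFSWAP knockdown with UPF1 present and UPF1 knockdown with SFSWAP present. The results of these comparisons are therefore not independent. Median levels of the very short introns were 0.0718, 0.0622 and 0.0760 in siNT and at most 0.0682 in the other groups. How far the siNT levels account for the 53 was not tested. MSTO1 intron 10 had the lowest p (adjusted p = 0.203). It was at 0.324, 0.467 and 0.282 in siNT and at 0.245, 0.223 and 0.210 in siSFSWAP, the opposite order from that after UPF1 knockdown given above. ACADVL intron 12 dropped from 0.206, 0.137 and 0.187 to 0.0424, 0.0704 and 0.0526 with UPF1 present (adjusted p = 0.000826) and was between 0.0312 and 0.0568 in all 6 UPF1 knockdown libraries. The test of the difference gave an adjusted p of 0.603. EIF3G intron 9 had the same shape, at 0.126, 0.0781 and 0.155 in siNT, 0.0330, 0.0272 and 0.0311 in siSFSWAP and 0.0292 to 0.0697 in the 6 UPF1 knockdown libraries (adjusted p for the difference 0.384). IPO4 intron 20 and C16orf13 intron 5 came next, both with an adjusted p of 0.603.

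**Figure D5:**
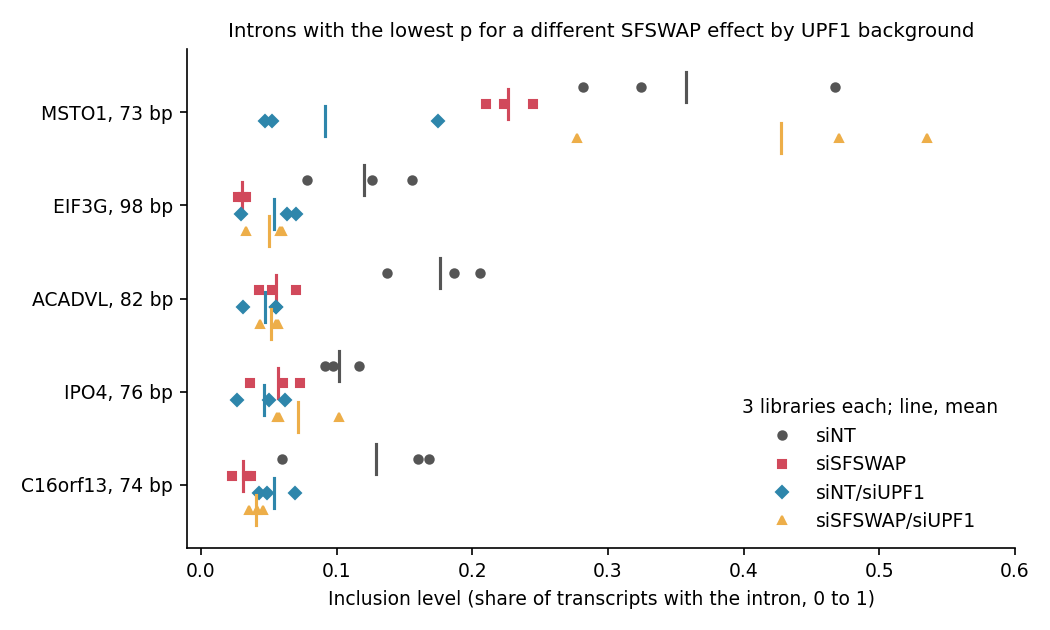
Inclusion level (x axis, 0 to 0.6) in all 12 libraries of the 5 introns with the lowest p for a difference between the 2 SFSWAP effects. Each point is 1 library, marked by group, and each line a mean. In ACADVL, EIF3G, IPO4 and C16orf13 the siNT means are the highest of the 4 groups, and in MSTO1 the siNT/siUPF1 mean is the lowest.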

How the data were processed

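The authors made polyA RNA libraries (KAPA mRNA HyperPrep), and their processing notes name cutadapt 1.9.1, STAR 2.7 and GRCh38.p8; strand use in counting is not given in the sources used here. They deposited rMATS tables with whole read counts per splice event for both forms, with 3 libraries a group joined in 1 cell and listed with no replicate number; their p-value, FDR and level columns were not used. The deposited form lengths (99 for the spliced form, 99 more than the intron for the retained form) were used to compute levels.

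The members and gene lists were chosen with earlier results of these data known. Introns with under 10 reads in all on either form were not tested. Each was fitted with a two-sided quasi-binomial logistic model on the deposited counts, the dispersion moderated by squeezeVar in limma 3.58.1 (R 4.3.3) and floored at 1, with Benjamini-Hochberg adjustment over all retained introns fitted and a threshold of 0.05. The script was tested on simulated data. The difference between UPF1 backgrounds is the product term of 1 model over 12 libraries. Differences are knockdown minus control. Libraries appear in the order of the deposited list.

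Sequences came from the GRCh38 reference and positions from GENCODE 44; of 13854 retained introns of at least 21 bp, 99.3% had GT-AG, GC-AG or AT-AC ends on it. Named introns were, for each SFSWAP comparison and direction, the 8 with the largest difference among those called, with at least 20 reads per library on average and groups apart; up to 5 for the UPF1 comparisons, where the lowest p are given since 0 were called; the 5 with the lowest p for the difference between backgrounds; the 4 shortest (here 22 tie at 1 bp); and the 3 with the lowest p in each list. Some introns that this rule names are not reported here. The genes with several called introns, the introns called in both comparisons and the miRNA host introns were chosen after their values were seen. Counting error limits introns with few reads: among the largest falls and rises, the least-read intron had 22.2 reads per library on average. Python 3.11.15, pandas 2.3.3 and matplotlib 3.10.9 were used for tables and figures.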

Additional observations from a re-analysis of the deposited data

How the results depend on the processing

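No paired analysis was possible because the deposited columns carry no replicate numbers. With limma on log2 odds (pseudocount 0.5 or 1) or with each intron's own dispersion, 0 very short introns were called for SFSWAP knockdown with UPF1 present (362, 383 and 269 had an unadjusted p under 0.05) and 0 after UPF1 knockdown (202, 223 and 139). Asking for a difference of at least 0.1 as well left 128 of the 196 with UPF1 present. Leaving out 1 library gave 124 to 271 calls with UPF1 present (124 without the first siNT, 127 without the third siNT, 128 without the first siSFSWAP and 124 without the second siSFSWAP library) and 23 to 113 after UPF1 knockdown, from 59. There the count was 32 without the first, 34 without the second and 113 without the third siNT/siUPF1 library, and 23 without the first, 31 without the second and 28 without the third siSFSWAP/siUPF1 library. For UPF1 knockdown the counts of 0 became 0 to 6 with SFSWAP present (6 without the second siNT and 1 without the third siNT/siUPF1 library) and 0 to 3 in SFSWAP knockdown cells (3 without the first siSFSWAP/siUPF1 library). They became 2 in the latter when the tables were matched by intron coordinates, an alternative chosen after seeing the data, and for the difference between backgrounds 0 to 2 (2 without the second siNT and 1 without the third siNT/siUPF1 library). A filter of 30 reads, no filter, no floor, 1 event per intron and a limit of 21 bp on length kept every count within 1.5 times. Leaving out 1 library ended the call of 1 to 11 of 38 named introns with UPF1 present and of 1 to 15 of 26 after UPF1 knockdown. Of these named introns only EEF1G after UPF1 knockdown changed sign: its log2 odds ratio ran from -0.0062 without the first siSFSWAP/siUPF1 library to 5.595 without the second. Counted at retained-intron events instead, UPF1 reads dropped by 98.5% with SFSWAP present and by 98.6% in SFSWAP knockdown cells. These sums are over unlike sets, 4 UPF1 events with UPF1 present and 2 after its knockdown. The percentages therefore do not measure the loss of UPF1 RNA alone. SFSWAP has no such event. Without 1 library the decrease was 53.7% to 67.3% for SFSWAP and 73.6% to 82.3% for UPF1.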

Other observations

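Some very short introns are the source of small RNAs. Among the 2900, 21 overlap an annotated miRNA hairpin and 3 a snoRNA, and in 4 the hairpin takes up the whole intron, as in mirtrons, whose ends are made by splicing: MIR1238 in ATG4D, MIR7108 in LMNB2, and MIR1227 and MIR6789 in PLEKHJ1. These introns were looked up after the values had been seen. With UPF1 present 15 miRNA host introns were tested, of which 2 fell and 1 rose, beside 9.1% lower and 1.33% higher over all tested introns. So few introns cannot show a difference from those shares. The PLEKHJ1 intron that holds MIR6789, printed in the report, was at 0.130, 0.151 and 0.247 in siNT and at 0.0351, 0.0253 and 0.0144 in siSFSWAP (adjusted p = 0.000788), and at 0.267, 0.250 and 0.101 against 0.0233, 0.0353 and 0.0201 after UPF1 knockdown (adjusted p = 0.00812). The groups did not overlap in either comparison. The MIR1227 intron of the same gene had siNT levels of 0.0426, 0.0833 and 0.0434 and siSFSWAP levels of 0.0438, 0.0420 and 0.0613, which overlap (adjusted p = 0.708). The second fall was the PTBP1 intron with MIR4745, and the rise was the CALR intron with MIR6515, which rested on 1 library. Reads of the small RNAs themselves were not analysed here.

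In all, 90 introns called lower with UPF1 present had values in all 4 groups. Their median level was 0.254, 0.175 and 0.281 in the siNT libraries and 0.0719, 0.0702 and 0.0807 in the siSFSWAP libraries, which chose them, and 0.189, 0.222 and 0.130 in siNT/siUPF1 and 0.0651, 0.0821 and 0.0969 in siSFSWAP/siUPF1.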
